A study of Mus musculus with 19 samples.

Results

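YAP (Yap1) and TAZ (Wwtr1) are transcriptional coactivators, and TEAD1 to TEAD4 are the DNA-binding proteins through which they act. The 10 genes described here are Yap1, Wwtr1, Tead1, Tead2, Tead3, Tead4 and 4 target genes of the complex, Ankrd1, Amotl2, Ajuba and Lats2. They were found by symbol, 10 of 51912 listed genes in one deposited table and 10 of 24421 in the other, and all 10 passed the filter on low counts in both. RNA was sequenced in bulk from mouse lung organoids, which are cultures grown in 3 dimensions. One table holds non-small cell lung cancer (NSCLC) organoids (n = 4) and normal lung organoids (n = 3). The other holds NSCLC organoids resistant to immunotherapy (n = 9) and NSCLC organoids sensitive to it (n = 3). Genotype, driver alleles, strain, the immunotherapy agent and the age of the animals were not among the labels read, and no label says that the libraries came from separate animals or cultures. P-values therefore measure the spread between these libraries, which may be technical.

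In the Hippo pathway the kinases MST1 and MST2 activate the kinases LATS1 and LATS2, which phosphorylate YAP and TAZ and keep them out of the nucleus. When LATS activity is low, YAP and TAZ enter the nucleus, bind TEAD proteins and raise transcription of target genes. Among these are genes that feed back on the pathway, such as Lats2 and Amotl2. Activity of YAP and TAZ is set largely by phosphorylation and location, which RNA levels do not measure. In lung, the pathway is known for its part in alveolar regeneration and in growth of lung tumours.

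Libraries held 122967042 to 154479953 counts in NSCLC and 20138197 to 21060762 in normal organoids, and 11988677 to 24462955 in resistant and 15292427 to 18716749 in sensitive organoids. The cell type labels were checked by the summed level of marker genes, in CPM, which are counts scaled to a common library total. The sum over 6 alveolar type 2 markers was 7280 to 13700 CPM in NSCLC and 50300 to 59300 CPM in normal libraries. The sum over 8 epithelial markers was 9460 to 14400 CPM in NSCLC and 1880 to 2170 CPM in normal libraries. In the other table it was 295 to 2390 CPM in resistant and 5660 to 7400 CPM in sensitive libraries, so epithelial genes were detected in each resistant library, below the level of each sensitive library. Fewer cells of a type and less RNA per cell cannot be told apart in bulk samples.

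TEAD proteins bind the letters GGAATG, read as CATTCC on the opposite strand. These letters were sought on both strands in the 250 bases before each RefSeq start site (GRCm38.p6, the same assembly as mm10). Windows were found for 8 of the 10 members, Tead1 and Tead4 being the others. The letters occurred in a window of 6 of these 8 members, against 14.4% of 27025 genes with a window. By windows they were in 8 of 12, against 12.6% of 32851 mouse promoter windows of the same length, but the Wwtr1 windows overlap and share their match, and the members' 11 matches lie at 10 distinct sites. The AP-1 letters TGANTCA, whose reverse complement is the same, were in 0 of the 12 windows and in 6.75% of all windows. With no AP-1 match, none overlapped a TEAD match. Windows are shown for both coactivators, for the 3 targets with a match, and for Tead2, the member that differed most between resistant and sensitive organoids. Each sequence runs 5′ to 3′ on the strand of its gene, and capitals mark GGAATG or CATTCC.
Yap1: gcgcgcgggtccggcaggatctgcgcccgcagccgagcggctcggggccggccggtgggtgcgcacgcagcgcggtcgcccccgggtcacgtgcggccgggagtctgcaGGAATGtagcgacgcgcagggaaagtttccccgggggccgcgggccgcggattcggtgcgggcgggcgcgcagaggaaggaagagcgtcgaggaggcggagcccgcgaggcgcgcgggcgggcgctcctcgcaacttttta
Wwtr1: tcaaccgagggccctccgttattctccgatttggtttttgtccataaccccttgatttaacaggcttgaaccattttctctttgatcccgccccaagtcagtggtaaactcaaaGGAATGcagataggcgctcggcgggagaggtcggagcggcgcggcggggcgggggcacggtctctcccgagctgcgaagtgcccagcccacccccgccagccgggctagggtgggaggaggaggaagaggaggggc
Ankrd1: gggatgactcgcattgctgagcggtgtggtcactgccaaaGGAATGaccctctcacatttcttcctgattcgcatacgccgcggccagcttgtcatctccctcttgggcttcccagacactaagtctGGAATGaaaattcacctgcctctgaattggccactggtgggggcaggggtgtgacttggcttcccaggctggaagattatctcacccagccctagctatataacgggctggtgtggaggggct
Amotl2: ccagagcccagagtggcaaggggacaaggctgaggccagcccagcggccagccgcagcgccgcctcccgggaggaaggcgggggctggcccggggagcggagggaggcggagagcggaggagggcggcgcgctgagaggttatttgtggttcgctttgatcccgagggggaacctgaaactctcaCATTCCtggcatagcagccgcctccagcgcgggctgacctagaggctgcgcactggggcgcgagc
Ajuba: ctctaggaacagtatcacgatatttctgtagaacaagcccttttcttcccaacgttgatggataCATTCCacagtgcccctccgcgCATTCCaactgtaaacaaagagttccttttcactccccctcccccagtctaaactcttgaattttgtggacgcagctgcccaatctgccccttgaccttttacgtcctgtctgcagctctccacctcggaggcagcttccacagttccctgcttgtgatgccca
Tead2: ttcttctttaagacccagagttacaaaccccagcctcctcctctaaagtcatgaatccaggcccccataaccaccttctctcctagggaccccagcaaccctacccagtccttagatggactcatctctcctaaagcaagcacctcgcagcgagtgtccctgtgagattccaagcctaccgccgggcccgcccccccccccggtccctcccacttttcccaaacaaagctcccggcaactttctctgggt
The Yap1 window lies at chr9:8004597-8004846 on the minus strand, with its match starting 141 bases before the start site. The Wwtr1 window is chr3:57575911-57576160, minus strand, with a match at 136 bases. Ankrd1 (chr19:36119845-36120094, minus strand) has matches at 210 and 123 bases. The Amotl2 window (chr9:102717554-102717803, plus strand) holds a match at 65 bases. Ajuba (chr14:54577662-54577911, minus strand) has matches at 186 and 164 bases. The Tead2 window, chr7:45215542-45215791 on the plus strand, has no match. A match describes the letters in this window only, and binding was not measured.

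Resistant organoids were compared with sensitive organoids to ask which members of the pathway differ with acquired resistance to immunotherapy. Both coactivator genes and 3 of the 4 TEAD genes rose in resistant organoids, with Tead2 up the most, and none of the 4 targets among the members passed the test. Tead2 averaged 69.8 ± 34.3 CPM in resistant (SD, n = 9) and 3.26 ± 0.812 CPM in sensitive organoids (n = 3), and Wwtr1 314 ± 82.1 CPM in resistant and 71.8 ± 27 CPM in sensitive organoids. Of the 10 members 5 rose and 0 fell in edgeR's quasi-likelihood test at an adjusted p under 0.05, against 19.3% of all 14360 tested genes called higher, 18.2% called lower and 37.5% called in either direction. The groups did not overlap for the same number of members, 5, against 31.3% of all tested genes. The median log2 fold change was 0.82 over the members and 0.06 over all tested genes. The members were chosen with earlier results of these libraries known, so their count is a description. Fibroblast markers moved in the same direction, with 5 of 6 tested higher and 0 lower and a summed level of 19.1 to 346 CPM in resistant and 9.18 to 22.4 CPM in sensitive libraries. Epithelial markers were lower for 5 of 8, and macrophage markers for 8 of 10, and the macrophage list summed to 217 to 560 CPM in resistant and 1550 to 3580 CPM in sensitive libraries. No epithelial or macrophage marker averaged as little as 1 count per library in either group, and among fibroblast markers Tcf21 did so in resistant and Dpt, Fap, Postn, Tcf21 and Mfap5 in sensitive libraries. The part of these markers in the results was not tested.

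**Figure D1:**
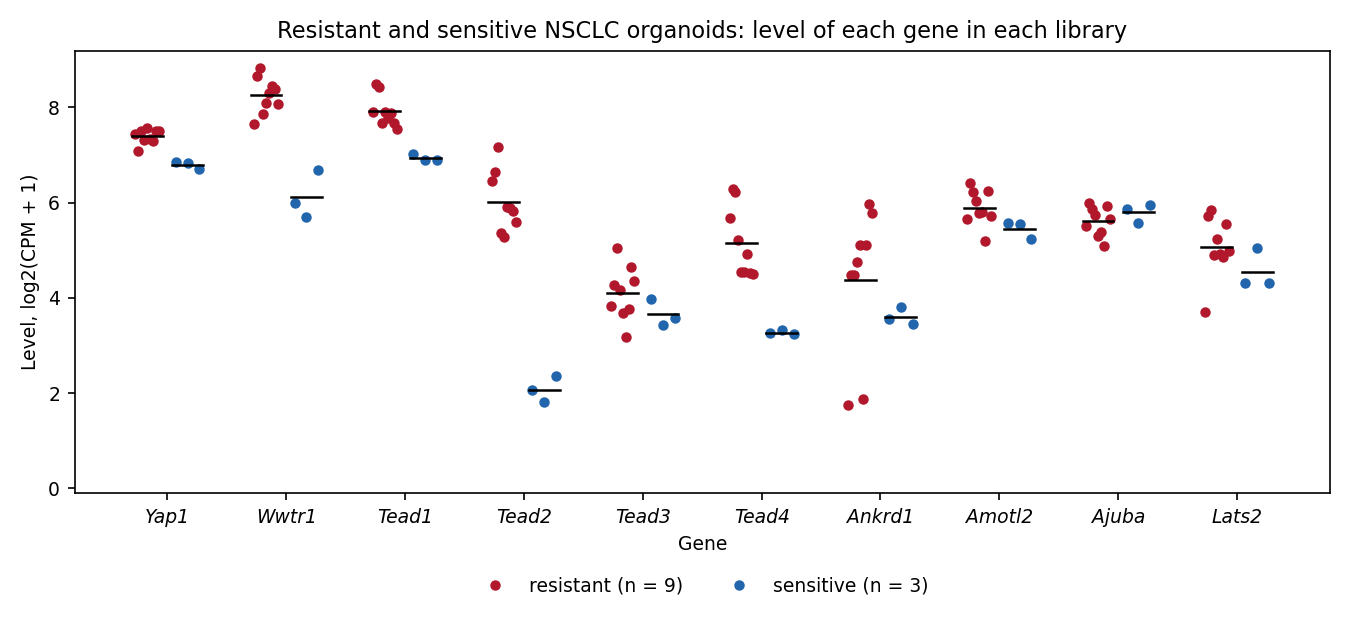
Level of each member, as log2(CPM + 1), in the 9 resistant and 3 sensitive libraries. Points are libraries and black lines are group means. Yap1, Wwtr1, Tead1, Tead2 and Tead4 have each resistant library above each sensitive library, and Ankrd1 has 2 resistant libraries below all sensitive ones.

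Yap1 lies on chromosome 9 from 7931999 to 8004596 (mm10, GENCODE M21) and encodes YAP. Over the resistant libraries its lowest, median and highest levels were 135 CPM, 173 CPM and 189 CPM, and in the sensitive libraries it was at 114, 113 and 104 CPM. Each resistant library was above each sensitive library, and Yap1 was 1.52-fold higher by the ratio of means (log2 fold change 0.61 ± 0.13 SE, adjusted p = 0.00314, edgeR). Wwtr1, on chromosome 3 from 57455649 to 57575910, encodes the YAP paralog TAZ. Its lowest, median and highest resistant levels were 199, 313 and 455 CPM, and its sensitive levels were 62.6, 50.6 and 102 CPM. Again no resistant library overlapped the sensitive group (4.37-fold, log2 fold change 2.13 ± 0.30 SE, adjusted p = 1.93e-04, edgeR).

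Because both coactivator genes were counted in the same libraries, their ratio does not depend on scaling between libraries. The log2 ratio of Wwtr1 to Yap1 counts, each with 0.5 added, was 0.86 ± 0.45 in resistant (SD, n = 9) and -0.68 ± 0.59 in sensitive libraries (n = 3). Resistant libraries ran from 0.20 to 1.58 and sensitive libraries from -1.16 to -0.02, with no overlap. The difference was 1.55 (p = 0.00909 in an exact permutation test, two-sided, with 220 regroupings and no smaller p possible). In resistant organoids Wwtr1 thus had more counts than Yap1 in each of the 9 libraries, and in sensitive organoids fewer in each of the 3. Per kilobase of annotated exon, which corrects for the longer Yap1 transcript, the ratio of Wwtr1 to Yap1 levels ran from 2.22 to 5.81 in resistant and from 0.867 to 1.91 in sensitive libraries.

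Among the TEAD genes, Tead2 is on chromosome 7 from 45215753 to 45233644 and encodes a TEAD protein best known from embryonic tissue. The lowest, median and highest resistant levels of Tead2 were 37.8, 58.5 and 143 CPM, and the sensitive libraries held 3.18, 2.5 and 4.12 CPM. The gap between the groups was wide (21.4-fold, log2 fold change 4.42 ± 0.50 SE, adjusted p = 4.41e-05, edgeR). Tead4 (chromosome 6, 128224288 to 128300823), a TEAD gene known from the trophoblast lineage, had resistant levels from 21.5 through a median of 29.2 to 77.4 CPM and sensitive levels of 8.6, 8.96 and 8.44 CPM. Its groups did not overlap (4.54-fold, log2 fold change 2.18 ± 0.49 SE, adjusted p = 0.00403, edgeR). Tead1 (chromosome 7, 112679318 to 112906807), widely expressed in mouse tissues, was at 186, 236 and 361 CPM as the lowest, median and highest resistant levels and at 129, 117 and 118 CPM in sensitive libraries. It too separated the groups (log2 fold change 1.03 ± 0.22 SE, adjusted p = 0.0029, edgeR). Tead3 (chromosome 17, 28331671 to 28350817) had 8.08 to 32 CPM in resistant and 9.75 to 14.7 CPM in sensitive libraries, which overlapped (log2 fold change 0.56 ± 0.36 SE, adjusted p = 0.24, edgeR), and missed the threshold.

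The highest 2 resistant levels of Wwtr1, Tead1, Tead2 and Tead4 were all in resistant libraries 2 and 3. These libraries held 405 and 455 CPM of Wwtr1, 361 and 345 CPM of Tead1, 99.5 and 143 CPM of Tead2, and 77.4 and 73.2 CPM of Tead4. They were also the resistant pair closest to each other across genes, and the 2 shallowest of their group. For Yap1, in contrast, library 2 had the lowest resistant level, 135 CPM. Without both libraries the count of members called stayed at 5, and the Wwtr1 to Yap1 difference was 1.38, with an exact permutation p of 0.0167 (an alternative chosen after seeing the data). Resistant libraries 8 and 9 stood apart in epithelial markers, which summed to 1950 and 2390 CPM in them and to 295 to 1020 CPM in the other resistant libraries. Libraries 8 and 9 were the resistant pair next closest to each other across genes. Without both, 5 members were again called, and the Wwtr1 to Yap1 difference was 1.59, with an exact permutation p of 0.0167. That test takes each library as a separate unit, and no label says whether either pair shares a culture.

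Taken per kilobase of exon, the TEAD genes had another make-up in the 2 groups. Tead2 made up 30.7% ± 4.78 of the summed TEAD level in resistant (SD, n = 9) and 4.94% ± 1.24 in sensitive libraries (n = 3). Tead1 had 41% ± 6.19 in resistant and 64.9% ± 0.837 in sensitive libraries, while Tead4 had 22.4% ± 5.08 in resistant and 17.5% ± 1.44 in sensitive libraries. Tead3 had 5.86% ± 2.33 in resistant and 12.6% ± 1.97 in sensitive libraries. These shares are a description and were not tested.

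**Figure D2:**
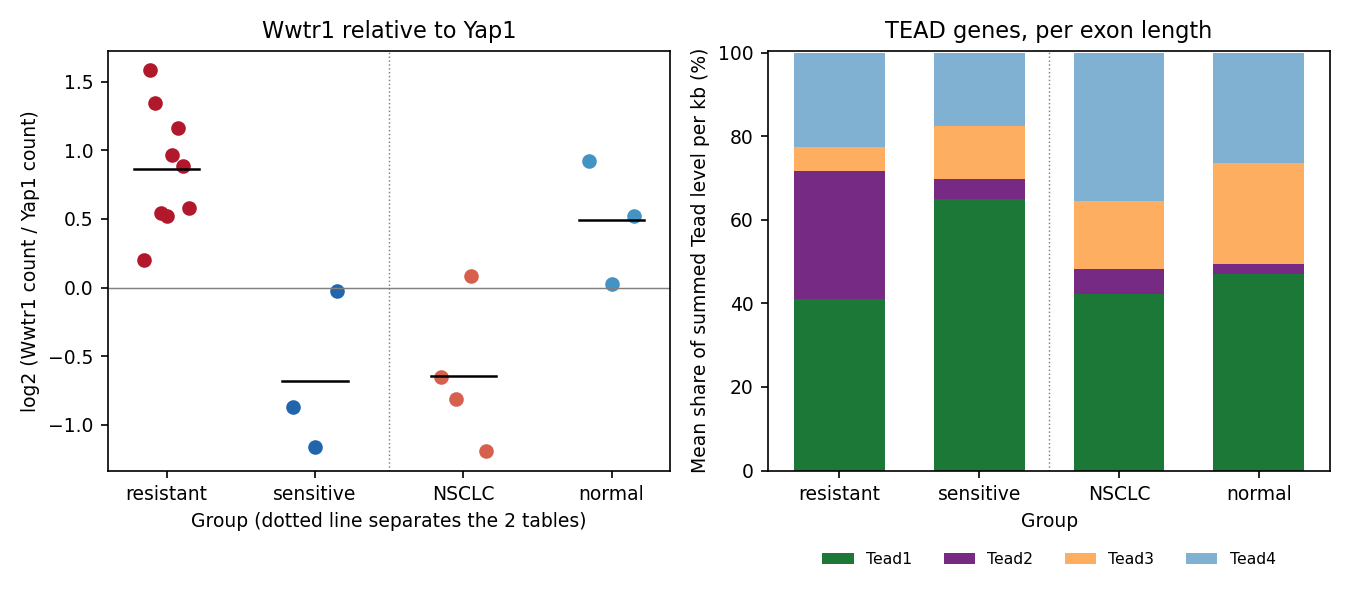
Left, log2 ratio of Wwtr1 to Yap1 counts in each library, with points for libraries and lines for group means. Right, mean share of each TEAD gene in the summed TEAD level per kilobase of exon, in percent, per group. Resistant libraries lie above 0 on the left, and Tead2 takes 30.7% in resistant and 4.94% in sensitive organoids on the right.

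The order of levels per kilobase differed as well. In resistant organoids Wwtr1 stood first at 65.6 ± 17.2 CPM per kilobase (SD, n = 9), above every other member in each library. Tead1, Yap1, Tead2, Ajuba, Tead4, Ankrd1, Amotl2, Lats2 and Tead3 followed, with means from 18.2 down to 2.59 CPM per kilobase, and neighbours among them overlapped. In sensitive organoids Ajuba, Wwtr1 and Yap1 came first at 15.1, 15 and 11.9 CPM per kilobase, with overlapping levels between neighbours. Tead1 and Amotl2 came next, then Ankrd1 and Lats2, which overlapped, then Tead4 and Tead3. Tead2 stood below only Wwtr1, Tead1 and Yap1 in resistant organoids, at 14.6 ± 7.15 CPM per kilobase, and last in sensitive organoids, at 0.682 ± 0.17 CPM per kilobase.

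The 4 targets gave no call between resistant and sensitive organoids, and Ankrd1 had the widest spread. Ankrd1 (chromosome 19, 36111961 to 36120099) encodes an ankyrin repeat protein of muscle that is widely used as a readout of YAP and TAZ. It had 28.5 ± 20.2 CPM in resistant (SD, n = 9) and 11.2 ± 1.6 CPM in sensitive libraries (n = 3). Resistant libraries 1 and 6 held 2.36 and 2.69 CPM, below each sensitive library, and the other 7 resistant libraries held 21.3 to 61.9 CPM, above each of them. Ankrd1 missed the threshold (log2 fold change 1.34 ± 0.80 SE, adjusted p = 0.203, edgeR). The highest Ankrd1 levels, 61.9 and 54.2 CPM, were in resistant libraries 8 and 9, the pair with the most epithelial marker RNA in the group. These libraries also had the highest summed endothelial markers, 18.4 and 14.8 CPM, against at most 4.62 CPM in the other resistant libraries. The 4 resistant libraries with the highest Ankrd1 levels, 5, 7, 8 and 9, were the 4 with the highest summed fibroblast markers, 233 to 346 CPM, and libraries 5 and 7 had the lowest epithelial sums, 295 and 632 CPM. The part of these markers in the Ankrd1 levels was not tested.

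Amotl2 (chromosome 9, 102716672 to 102733418) encodes an angiomotin-like scaffold that binds and restrains YAP. It had 35.8 to 84.6 CPM in resistant and 36.8 to 46.2 CPM in sensitive libraries (log2 fold change 0.49 ± 0.23 SE, adjusted p = 0.115, edgeR), and passed at an adjusted p of 0.0466 (edgeR) without resistant library 7, with a range of 0.0466 to 0.327 over all alternatives. Ajuba (chromosome 14, 54567472 to 54577558) encodes a LIM protein that inhibits LATS kinases, and had 33.1 to 62.5 CPM in resistant and 46.8 to 61.1 CPM in sensitive libraries (log2 fold change -0.18 ± 0.20 SE, adjusted p = 0.507, edgeR). Lats2 (chromosome 14, 57689662 to 57758388), the kinase gene, had 12 to 56.5 CPM in resistant and 18.8 to 31.9 CPM in sensitive libraries (log2 fold change 0.61 ± 0.38 SE, adjusted p = 0.216, edgeR). All 3 had overlapping groups. In GENCODE M21 another gene, Gm49361, is annotated on the same strand over 42.4% of the exon bases of Lats2. Gm49361 was not among the listed genes of either comparison, and the annotation used for counting is not given. Whether the overlap affected counts of Lats2 is therefore uncertain.

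Other YAP and TAZ target genes, 19 in number, moved both ways: 7 rose and 4 fell in resistant organoids, where 19.3% of all tested genes rose and 18.2% fell. Their median fold change was 0.61 on the log2 scale, beside 0.06 for all tested genes. The list mostly follows a set of targets described in human cancers, and its genes answer to other pathways too. Axl, a receptor tyrosine kinase gene, was at 626 ± 209 CPM in resistant and 11.7 ± 6.19 CPM in sensitive organoids (log2 fold change 5.74 ± 0.47 SE, adjusted p = 6.24e-06, edgeR). Ccdc80, a matrix protein gene, and Arhgef17 rose, with log2 fold changes of 3.18 and 1.59. The sensitive level of Ccdc80, 0.86 CPM, rested on 43 counts. Nt5e, which encodes the enzyme CD73, went the other way, with 70.1 ± 33 CPM in resistant and 597.6 ± 187 CPM in sensitive organoids (log2 fold change -3.09 ± 0.37 SE, adjusted p = 6.61e-05, edgeR). Nuak2, a kinase gene, and Rbms3, an RNA-binding protein gene, also fell, with log2 fold changes of -1.89 and -2.83. The list therefore did not move one way.

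Cyr61 and Ctgf, also known as Ccn1 and Ccn2, encode secreted matricellular proteins and are the most used targets of the pathway. They were named after their values were seen. Cyr61 had 28.2 to 668 CPM in resistant libraries, with a median of 214 CPM, and 23.4, 21.6 and 23.3 CPM in sensitive libraries, so each resistant library was above each sensitive one (log2 fold change 3.58 ± 1.04 SE, adjusted p = 0.0169, edgeR). With sensitive library 1, 2 or 3 left out, Cyr61 no longer passed (edgeR, adjusted p = 0.0607, 0.0637 and 0.0628). Resistant libraries 1, 4 and 6 held 28.2, 35.2 and 44.7 CPM of Cyr61, close to the sensitive level, and the other 6 held 153 CPM or more. Ctgf had 1.85 to 52.4 CPM in resistant and 6.01 to 17 CPM in sensitive libraries, which overlapped (log2 fold change 0.68 ± 0.84 SE, adjusted p = 0.551, edgeR). Libraries 1 and 6 were the lowest of the resistant group for both Ankrd1 and Ctgf, and libraries 8 and 9 the highest.

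**Figure D3:**
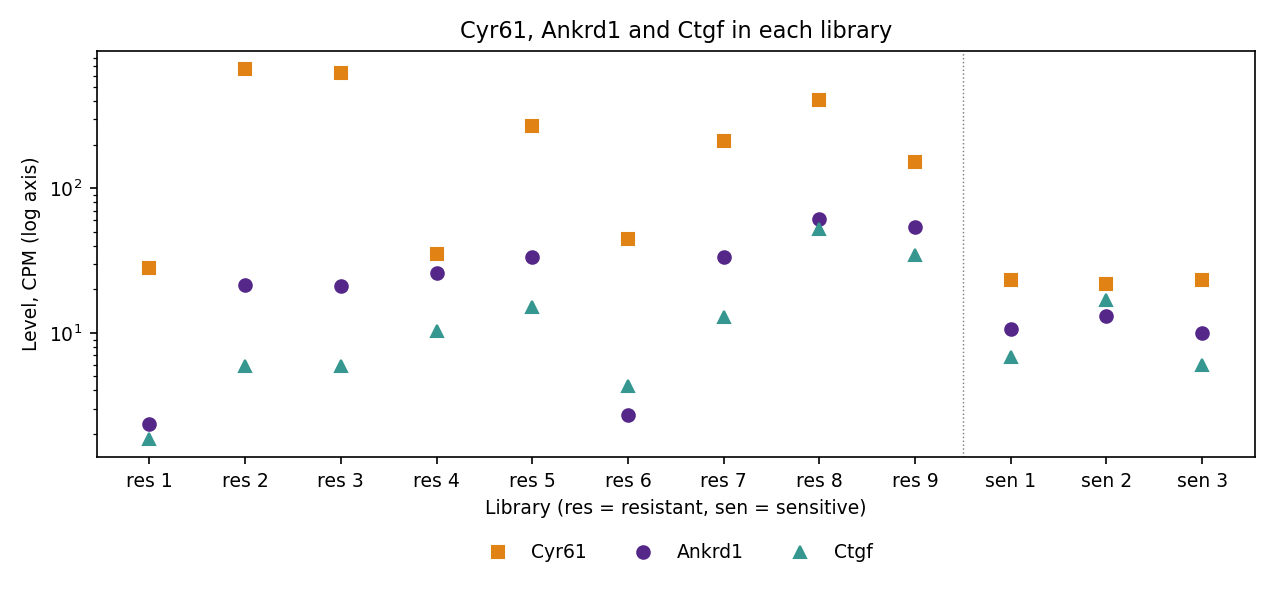
Level of Cyr61, Ankrd1 and Ctgf in CPM, on a log axis, in each of the 9 resistant and 3 sensitive libraries. Resistant libraries 1 and 6 have the lowest Ankrd1 and Ctgf levels, and libraries 2 and 3 the highest Cyr61 levels at 668 and 626 CPM.

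Upstream genes of the pathway went both ways. Of 14 genes of the Hippo kinase core 4 rose and 4 fell, against 19.3% and 18.2% of all tested genes, with a median log2 fold change of 0.06, equal at this precision to that of all tested genes. Frmd6, an adaptor gene, rose to 127 ± 16 CPM in resistant organoids, against 61.4 ± 7.6 CPM in sensitive organoids, and the scaffold gene Sav1 to 177 ± 31 CPM in resistant, against 111 ± 1.81 CPM in sensitive organoids. Taok2, an upstream kinase gene, also rose (log2 fold change 0.61). Wwc1, which encodes the scaffold KIBRA, fell to 69.6 ± 20.5 CPM in resistant, against 264 ± 22.6 CPM in sensitive organoids (log2 fold change -1.92 ± 0.22 SE, adjusted p = 5.28e-05, edgeR). Taok3 fell by 1.94 on the log2 scale, and Stk4, the gene of the kinase MST1, by 0.62.

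Of 13 junction and polarity regulators 5 rose and 4 fell, with a median log2 fold change of -0.14. Of all tested genes 19.3% rose, 18.2% fell and 37.5% were called in either direction. The angiomotin genes Amot and Amotl1, relatives of Amotl2, rose with log2 fold changes of 1.48 and 1.59. Dchs1, a large cadherin gene, had 14.1 ± 11.1 CPM in resistant and 0.256 ± 0.276 CPM in sensitive organoids, the sensitive value resting on 13 counts. Its log2 fold change was 5.73, and 6.83 without sensitive library 2. Fat1, another large cadherin gene, fell to 324 ± 70.6 CPM in resistant, against 580 ± 92.5 CPM in sensitive organoids, and Ctnna1, alpha-catenin, and Limd1, a LIM protein gene, also fell. Among vestigial-like cofactors, which bind TEAD proteins in competition with or beside YAP, only Vgll4 passed the low-count filter. Vgll4 fell to 20.6 ± 5.3 CPM in resistant, against 33.7 ± 3.09 CPM in sensitive organoids (adjusted p = 0.0264, edgeR), a call lost without sensitive library 1, 2 or 3 (adjusted p = 0.0934, 0.0968 and 0.0539).

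NSCLC organoids were compared with normal lung organoids to ask which members differ between tumour and normal cultures. Yap1 and Ankrd1 rose in NSCLC, and Tead1, Tead3 and Amotl2 fell. Ankrd1 averaged 5.55 ± 3.01 CPM in NSCLC (SD, n = 4) and 0.124 ± 0.178 CPM in normal organoids (n = 3), and Amotl2 55.5 ± 18.7 CPM in NSCLC and 187 ± 23.6 CPM in normal organoids. Of the 10 members 2 rose and 3 fell, against 28.5% of all 19932 tested genes called higher, 25.0% called lower and 53.5% called in either direction, so the share called was close to that of all genes. The groups did not overlap for 6 members, against 59.4% of all tested genes. The median log2 fold change was -0.42 over the members and 0.11 over all tested genes. Upper quartile scaling moved the median of all genes to -0.08, and no called member changed its direction or its call under it. With this scaling Lats2 was called as lower too (adjusted p = 0.0269, edgeR). Without NSCLC library 3 the count of members called was 8, with Wwtr1, Tead4 and Lats2 added as lower. Fibroblast markers summed to 0.134 to 0.29 CPM in NSCLC and 32.2 to 120.0 CPM in normal libraries, and 8 of 9 tested were lower. Lum, Dpt, Postn and Tcf21 averaged 1 count or less per NSCLC library, and Mfap5 did so in normal libraries. Of 6 alveolar type 1 markers 5 were lower, with sums of 1790 to 3630 CPM in NSCLC and 6590 to 10500 CPM in normal libraries. The part of these markers in the results was not tested.

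**Figure D4:**
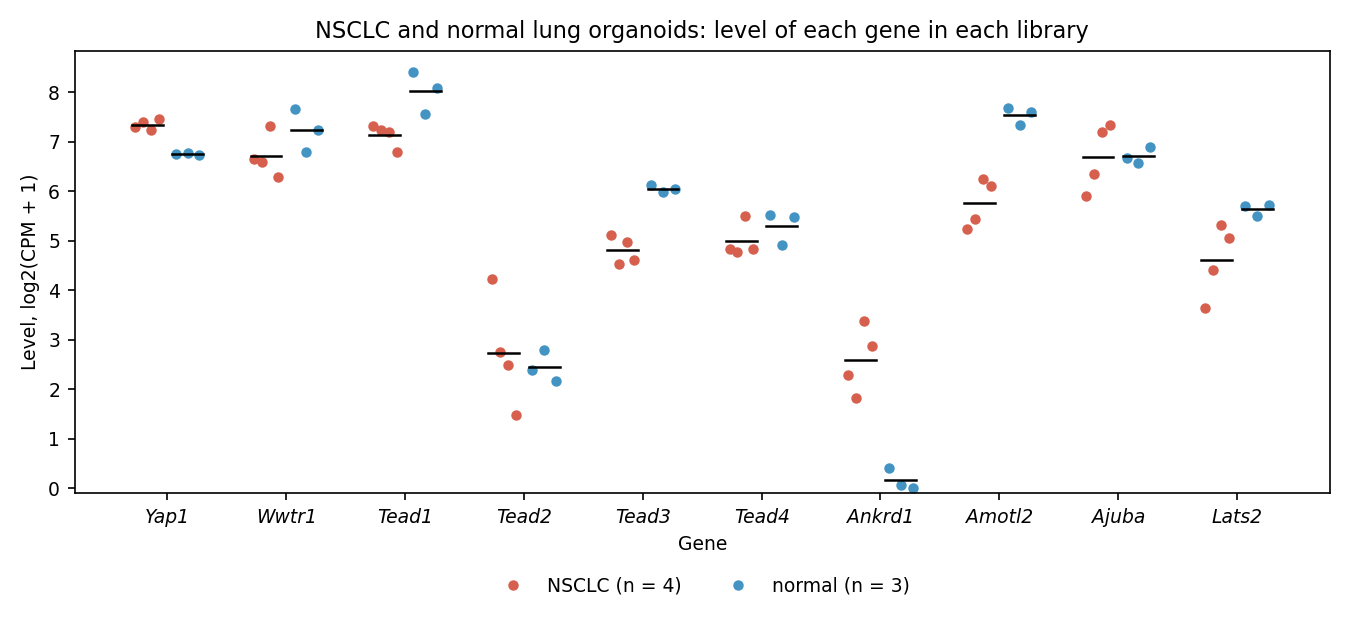
Level of each member, as log2(CPM + 1), in the 4 NSCLC and 3 normal libraries. Points are libraries and black lines are group means. Ankrd1 lies near 0 in the normal libraries and above them in each NSCLC library, and Amotl2, Tead1 and Tead3 lie below the normal libraries in each NSCLC library.

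Of the coactivators, Yap1 had 157, 168, 150 and 176 CPM in NSCLC libraries and 107, 108 and 105 CPM in normal libraries, with no overlap and little spread within either group (1.53-fold, log2 fold change 0.61 ± 0.11 SE, adjusted p = 0.00222, edgeR). Wwtr1 had 100.3, 96, 158 and 77.1 CPM in NSCLC libraries and 203, 110.3 and 151 CPM in normal libraries. The groups overlapped, and Wwtr1 did not pass (log2 fold change -0.52 ± 0.28 SE, adjusted p = 0.154, edgeR). Without NSCLC library 3, its highest NSCLC library, Wwtr1 passed as lower (adjusted p = 0.0274, with a range of 0.0274 to 0.504 over all alternatives). The log2 ratio of Wwtr1 to Yap1 counts was -0.64 ± 0.53 in NSCLC (SD, n = 4) and 0.49 ± 0.45 in normal libraries (n = 3). The difference of -1.13 had an exact two-sided permutation p of 0.114, and 35 regroupings cannot give less than 0.0571. NSCLC library 3, at 0.08, lay above the lowest normal library at 0.03.

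Tead3 and Tead1 fell, and Tead4 and Tead2 missed the threshold. Tead3 had 33.7, 22.1, 30.4 and 23.5 CPM in NSCLC libraries and 68.7, 62.8 and 65.2 CPM in normal libraries. Its groups were far apart (log2 fold change -1.26 ± 0.17 SE, adjusted p = 4.67e-04, edgeR). Tead1 had 160.1, 151, 146 and 110.4 CPM in NSCLC and 342, 187 and 274 CPM in normal libraries, again without overlap (log2 fold change -0.92 ± 0.22 SE, adjusted p = 0.00859, edgeR). Tead4 had 27.5, 26.6, 44.6 and 27.6 CPM in NSCLC and 44.9, 29.3 and 43.8 CPM in normal libraries. These overlapped through NSCLC library 3, and Tead4 did not pass (adjusted p = 0.29, edgeR), but did without that library (adjusted p = 0.0377, with a range of 0.0377 to 0.594 over all alternatives). Tead2 had 17.7, 5.77, 4.6 and 1.78 CPM in NSCLC and 4.2, 5.98 and 3.51 CPM in normal libraries, with NSCLC library 1 the highest (log2 fold change 0.71 ± 0.69 SE, adjusted p = 0.415, edgeR). Without that library the log2 fold change was -0.22. Per kilobase of exon, Tead2 held 5.9% ± 5.01 of the summed TEAD level in NSCLC (SD, n = 4) and 2.45% ± 1.2 in normal libraries (n = 3), and 3.49% ± 1.68 in NSCLC without library 1. Tead1 held 42.3% ± 4.49 in NSCLC and 47.1% ± 4.64 in normal libraries. Tead3 held 16.4% ± 1.7 in NSCLC and 24.1% ± 4.07 in normal libraries, and Tead4 35.4% ± 7.15 in NSCLC and 26.3% ± 1.84 in normal libraries. These shares were not tested.

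The targets split between the 2 directions. Ankrd1 had 3.91, 2.54, 9.41 and 6.34 CPM in NSCLC libraries, from 378 to 1137 counts, and 0.327, 0.0439 and 0 CPM in normal libraries, from 8 counts in all. Each NSCLC library was above each normal library, 44.9-fold by the ratio of means (log2 fold change 5.49 ± 0.96 SE, adjusted p = 0.00185, edgeR). Normal library 1 held 7 of the 8 normal counts, and without it the log2 fold change was 7.88, so the size of the fold is uncertain. Amotl2 had 36.7, 42.4, 74.8 and 68 CPM in NSCLC and 206, 161 and 195 CPM in normal libraries, so it was lower in each NSCLC library (log2 fold change -1.75 ± 0.26 SE, adjusted p = 8.31e-04, edgeR). Lats2 had 11.4, 20.2, 38.9 and 32.4 CPM in NSCLC and 50.9, 44.3 and 51.7 CPM in normal libraries. Its groups did not overlap, but it did not pass (log2 fold change -0.93 ± 0.37 SE, adjusted p = 0.0618, edgeR). It passed in 6 alternatives, among them DESeq2 (adjusted p = 0.038) and libraries thinned to equal depth (adjusted p = 0.032), with a range of 0.0227 to 0.153. Ajuba had 59, 80.7, 146 and 162 CPM in NSCLC and 101.1, 94.1 and 119 CPM in normal libraries, with NSCLC libraries on both sides of the normal group (log2 fold change 0.10 ± 0.34 SE, adjusted p = 0.831, edgeR).

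**Figure D5:**
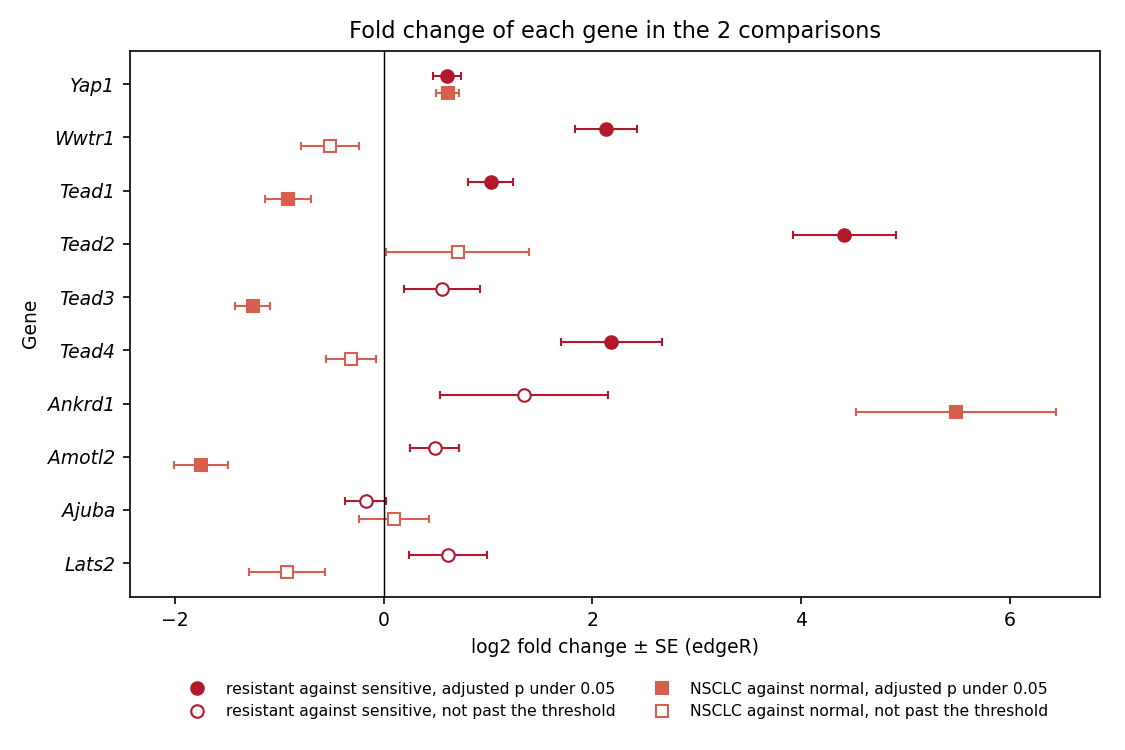
Log2 fold change with its standard error for each member in the resistant against sensitive comparison (circles) and the NSCLC against normal comparison (squares). Filled symbols passed an adjusted p under 0.05. Yap1 was higher in both, at 0.61 in each, while Tead1 was at 1.03 in the resistant comparison and -0.92 in the NSCLC comparison.

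The 2 comparisons come from separate tables with no shared library, and a difference between their fold changes was not tested. Yap1 is the one member called in the same direction in both, with a log2 fold change of 0.61 in each. Tead1 was called in opposite directions, at 1.03 and -0.92.

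In the NSCLC comparison the other YAP and TAZ targets again went both ways, with 7 genes up and 4 down among 19, a share called close to the 53.5% of all tested genes. The median of their log2 fold changes was -0.01. F3, the tissue factor gene, had 1447 ± 602 CPM in NSCLC and 23.3 ± 2.17 CPM in normal organoids (log2 fold change 5.96 ± 0.45 SE, adjusted p = 2.77e-05, edgeR). Crim1, which encodes a membrane protein that binds BMPs, and Asap1, an ARF regulator gene, rose with log2 fold changes of 1.85 and 2.64. Tgfb2, the growth factor gene, had 1.15 ± 0.86 CPM in NSCLC and 60.8 ± 19.5 CPM in normal organoids (log2 fold change -5.73 ± 0.62 SE, adjusted p = 1.65e-04, edgeR). Foxf2, a transcription factor gene of lung mesenchyme, and Rbms3 fell, with log2 fold changes of -6.18 and -3.21. Foxf2 held 24 counts over the NSCLC libraries and 226 over the normal libraries, 150 of them in normal library 2. The log2 fold change of Tgfb2 was -6.33 without NSCLC library 3, and that of Foxf2 was -5.29 without normal library 2. Ctgf rose to 39.9 ± 22.2 CPM in NSCLC, against 7.2 ± 1.97 CPM in normal organoids (adjusted p = 0.00979, edgeR), with NSCLC library 1 at 8.25 CPM, within the normal range. Cyr61 had 67.2, 51.1, 298 and 74.1 CPM in NSCLC and 29.4, 44.8 and 36.2 CPM in normal libraries (log2 fold change 1.74 ± 0.63 SE, adjusted p = 0.0461, edgeR). This call was lost in 7 alternatives, among them leaving out normal library 1, 2 or 3, where its adjusted p was 0.134, 0.0874 and 0.119 (edgeR), and its range over all alternatives was 0.0102 to 0.134. Without NSCLC library 3 the log2 fold change of Cyr61 was 0.79.

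Of the 14 Hippo kinase core genes 2 rose and 6 fell in NSCLC, with a median log2 fold change of -0.15. The share called was close to the 53.5% of all tested genes, of which 28.5% rose and 25.0% fell. Sav1 rose to 72.8 ± 4.62 CPM in NSCLC, against 41 ± 2.53 CPM in normal organoids. Taok3 fell to 113 ± 27.2 CPM in NSCLC, against 268 ± 20.4 CPM in normal organoids. Taok2 and Wwc2, a relative of KIBRA, fell with log2 fold changes of -0.82 and -1.39. Stk4 passed as higher (log2 fold change 0.42, adjusted p = 0.019, edgeR) and lost its call in 8 alternatives, with a range of 0.0214 to 0.115. The count of 8 calls in this list was 4 without normal library 1, 5 without normal library 2, 4 without normal library 3 and 5 without NSCLC library 4. Of 14 junction and polarity regulators 5 rose and 4 fell, against 28.5% and 25.0% of all tested genes. Amot rose to 26.5 ± 5.33 CPM in NSCLC, against 8.33 ± 0.627 CPM in normal organoids, while Amotl1 fell to 6.69 ± 5.29 CPM in NSCLC, against 59.6 ± 15 CPM in normal organoids (log2 fold change -3.15, and -3.91 without NSCLC library 1). Scrib, a polarity gene, and Fat1 rose with log2 fold changes of 0.61 and 0.94, and the cadherin genes Dchs1 and Fat4 fell with log2 fold changes of -6.88 and -3.27. These rest on 9 counts of Dchs1 over the NSCLC libraries and 141 over the normal libraries, and on 34 counts of Fat4 in NSCLC and 42 in normal libraries. Without normal library 2 the log2 fold change of Fat4 was -2.54. Vgll4 rose to 159 ± 19 CPM in NSCLC, against 54.4 ± 3.16 CPM in normal organoids (log2 fold change 1.55 ± 0.13 SE, adjusted p = 5.41e-05, edgeR). Vgll3 fell by 3.44 on the log2 scale (adjusted p = 0.0207, edgeR), with a log2 fold change of -5.13 without NSCLC library 1, a call lost without normal library 2 or 3 (adjusted p = 0.0627 and 0.0584).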

How the data were processed

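The authors deposited 2 tables whose count columns, 1 per library, hold whole numbers without normalization, as the headers and values show. STAR 2.6.0a, DESeq2 1.26.0 and the build mm10 are named in the submitters' processing notes. Read counter, strand setting and annotation: not given in the sources used here. Columns of scaled values and of the authors' fold changes were not used.

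Each table was analysed on its own. Symbols for 26857 identifiers of the NSCLC and normal data were added from the reference table of gene names. The fit used edgeR 4.0.16 in R 4.3.3, with filterByExpr against low genes, TMM scaling and the quasi-likelihood test, with Benjamini-Hochberg adjustment over all tested genes and a threshold of 0.05. A standard error is the absolute log2 fold change divided by the root of F. CPM divides counts by library totals multiplied by TMM factors. Levels per kilobase use merged exons of GENCODE M21. The scripts were tested on simulated counts in which, unlike in these data, few genes were changed. Changes of 1 on the log2 scale were recovered for 11.8% of changed genes in NSCLC against normal and 17.5% in resistant against sensitive. For changes of 2 these shares were 49.3% and 65.2%. With few changed genes the adjustment of p-values is stricter, so these shares do not give the recovery in these data. A gene that missed the threshold may still differ. DESeq2 1.42.0 was run as an alternative, as were other scalings, no filter, thinning to equal depth, a replicate block and leaving libraries out.

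Members and lists were chosen with earlier results of these data known. Named were all members, up to 3 genes per list and direction with the smallest adjusted p, and, for 3 members, the 2 genes of nearest profile. Total counts per library ran from 11988677 to 154479953. No 2 libraries of a group agreed within sampling noise.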

Additional observations from a re-analysis of the deposited data

Results flagged for a closer look

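For the 10 members, the highest and lowest library of the NSCLC and resistant groups were set against the rest of their group. Dixon's test at 95% on the log2 scale was used, for 20 groups in all, of which chance flags about 1 in 20. Levels are given here in CPM. Tead4 in NSCLC library 3, at 44.6 CPM, stood above the other NSCLC libraries at 26.6 to 27.6 CPM. Lats2 in resistant library 1, at 12.0 CPM, stood below the other resistant libraries at 27.8 to 56.5 CPM.

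NSCLC library 3 also had the highest NSCLC levels of Wwtr1, Ankrd1, Amotl2 and Lats2, at 158, 9.41, 74.8 and 38.9 CPM. Its summed epithelial, mesothelial and alveolar type 1 markers were the highest of the NSCLC group, at 14400, 1770 and 3630 CPM. Its macrophage and endothelial sums were the lowest, at 75.4 and 1.46 CPM. The part of these markers in its levels was not tested. Resistant library 1 also had the lowest resistant levels of Wwtr1 and Ankrd1, at 199 and 2.36 CPM, and the lowest summed fibroblast markers, at 19.1 CPM.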

How the results depend on the processing

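Of 340 repeats of single-member results under the alternatives, 330 kept their direction and side of the threshold or were not called in either, 9 gained a call and 1 lost it, and no called result reversed. Leaving out 1 library at a time gave 5 to 8 called members in NSCLC against normal and 5 to 6 in resistant against sensitive. It gave 4 to 8 calls in the Hippo kinase core in NSCLC, and 1 to 2 in NSCLC and 0 to 1 in resistant for the vestigial-like cofactors. The Wwtr1 to Yap1 difference ran from -1.38 to -0.92 in NSCLC and from 1.31 to 1.88 in resistant. With the replicate number as a block, calls were 5 in the Hippo kinase core, 1 of the vestigial-like cofactors and 7 of the other targets in NSCLC, and 0 of the vestigial-like cofactors in resistant. Under the block (edgeR) the adjusted p was 0.0895 for Yap1, 0.14 for Sav1, 0.103 for Stk4, 0.0963 for Ctnna1, 0.128 for Vgll4 and 0.0563 for Cyr61 in resistant against sensitive. In NSCLC against normal it was 0.0541 for Ctgf, 0.0851 for Cyr61, 0.0879 for Stk4 and 0.0709 for Vgll3. Deviations of same-numbered libraries correlated at -0.021 to 0.021 in NSCLC and normal and at -0.086 to 0.146 in resistant and sensitive libraries, so the numbers are not taken as pairs. Under the block, resistant libraries 4 to 9 and NSCLC library 4 have no same-numbered library in the other group and add nothing to the comparison. The block therefore compared 3 libraries with 3. In resistant against sensitive it moved the log2 fold change of Ankrd1 from 1.344 to -0.018 and that of Ctgf from 0.675 to -1.145. Neither gene was called with or without the block. Leaving out libraries also leaves fewer residual degrees of freedom, and other causes of the changes were not tested. Depth in NSCLC was above that of normal libraries, and thinning to equal depth added Lats2 and ended no member's call.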

Other observations

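Genes with the profile nearest to a member were sought among tested genes averaging 3 or more in log2 CPM, each profile centred on its own mean, by the root mean square difference in log2 CPM. In the 12 resistant and sensitive libraries the nearest to Wwtr1 were Caprin2 and Cul7, at 0.23 and 0.24, where Wwtr1 itself varied by 1.002. The nearest to Ankrd1 were Grem1 and Ctgf, at 0.59 and 0.76, where Ankrd1 varied by 1.43. The nearest to Yap1 were Pex13 and Rpl37a, at 0.12 each, where Yap1 varied by 0.29. In the 7 NSCLC and normal libraries the nearest were Srpr and Baz1b for Yap1 (0.04 each, where Yap1 varied by 0.31), Klf9 and Snx13 for Wwtr1 (0.10 and 0.14, where Wwtr1 varied by 0.45) and Sdcbp2 and Serpinb5 for Ankrd1 (0.84 and 0.90, where Ankrd1 varied by 3.16). These are nearest among over 9000 genes, so near profiles are to be found by chance, and no relation was tested.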
